A study of Solanum tuberosum with 12 samples.

Results

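Silencing of StRIK in the potato tuber periderm was incomplete and uneven, so the residual StRIK level differed among the silenced libraries. The transcripts described here are the 200 whose levels followed that residual StRIK level most closely over the 9 RNAi libraries. They comprise 100 transcripts with the highest Pearson r to StRIK, called high r transcripts, and 100 with the lowest, called low r transcripts. They were taken from 17167 eligible transcripts among the 54416 in each library. Eligible transcripts had a mean CPM of 5 or more (CPM is the estimated count of a transcript scaled to a library total of 1000000) over the RNAi libraries. The 36 of that abundance that the study lists as changed in the silenced periderm were left out. The study called those by comparing RNAi with Wild type libraries, so Wild type values entered the choice through this exclusion. With the listed transcripts kept, 97 of the high r and 100 of the low r transcripts were chosen again. The r was computed on log2(CPM + 0.5) against log2(StRIK CPM + 0.5), where StRIK is the sum of the isoforms PGSC0003DMT400064729, PGSC0003DMT400064730 and PGSC0003DMT400064731.

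Plants of *Solanum tuberosum* cv Désirée were grown in soil. Periderm RNA came from the untransformed Wild type and from 3 lines with silenced StRIK, numbered 9, 12 and 47, with 3 libraries for each. Each line descends from 1 transformation event with the same hairpin construct in the vector pBIN19RNAi, so its 3 libraries share an insertion, and a test that counts 9 RNAi libraries treats them as independent. A tag that the library names carry is read here as a lane and called the lane tag. It was 6 in the 3 Wild type libraries and in line 47 replicates 2 and 3, and 7 in the other 7 RNAi libraries. Only 2 RNAi libraries thus share the tag of the Wild type. A difference between Wild type and RNAi libraries can therefore largely not be told apart from a difference between the tags.

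The periderm is the skin of the tuber and is made up of the phellem (cork), the phellogen (the meristem that forms it) and the phelloderm. According to the study, the skin it took as periderm held mostly phellem, with some phellogen. RIK proteins of plants carry KH domains, a fold that binds RNA, and the maize protein from which the family is named interacts with the transcription factor ROUGH SHEATH2. In RNA interference a hairpin RNA is cut into small RNAs that direct the cleavage of matching transcripts, and the amount of target left commonly differs between plants and samples. The hairpin used here matches exons 8 to 10 of StRIK and the isoforms summed above, and it does not match the shortest isoform, PGSC0003DMT400064735. The primers that the study designed on exons 8 and 9 are shown because they mark the part of the gene where the silencing fragment lies. Each was found once in the 7124-base StRIK gene sequence of the study, and together they enclose 257 bases of it.
StRIK forward: aagaggacgtggttcgggata
StRIK reverse: agcttcgcacgctcaagac

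StRIK stood at 88.3, 82.5 and 84.6 CPM in the 3 Wild type libraries. In line 9 it stood at 44.3, 75.1 and 60.0 CPM, in line 12 at 52.4, 41.3 and 35.5 CPM, and in line 47 at 34.5, 48.4 and 52.9 CPM. All RNAi libraries lay below all Wild type libraries, line 9 replicate 2 came nearest to them, and within each line the level varied. The mean was 85.1 ± 2.97 CPM in the Wild type (SD, n = 3) and 49.4 ± 12.7 CPM over the RNAi libraries (SD, n = 9), or 58.0% of the Wild type, with p = 0.00909 in a two-sided exact permutation test, the smallest value that 220 splits allow. Without any 1 library the percentage was between 54.2% and 60.2%. For PGSC0003DMT400064730, edgeR's quasi-likelihood test gave a log2 fold change of -0.88 (SE 0.16) in the RNAi libraries and an adjusted p (Benjamini-Hochberg) of 0.13, so the single isoform did not pass the threshold of 0.05 over all transcripts.

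The libraries held between 18650236 and 21585122 effective counts in total, and depth moved with StRIK among the RNAi libraries. Pearson's r between StRIK CPM and total effective counts was 0.75 and Spearman's rho was 0.77 over the 9 libraries (exact permutation p = 0.0153 and 0.0214). Without line 9 replicate 2 and line 47 replicate 1, the libraries farthest from the median StRIK level, they were 0.79 and 0.93 over 7 libraries (exact permutation p = 0.0315 and 0.00675). It was 1 relation, so no adjustment was made. With r taken given total effective counts (an alternative chosen after seeing the data), 35 of the high r and 14 of the low r transcripts were chosen again. In those lists the Wild type mean was above the RNAi mean in 45 high r transcripts and below it in 33 low r transcripts. As the 2 moved together, taking depth away also takes away part of the differences in StRIK. The part of depth in the choice was therefore not tested. The listed transcripts annotated as rRNA (ribosomal RNA) intron-encoded homing endonuclease, Senescence-associated protein or Cytochrome P450 like_TBP numbered 6 and are grouped here as rRNA-like. Only the first of these annotations names ribosomal RNA. Together they summed to 8239 and 6241 CPM in line 47 replicates 2 and 3 and to between 174 and 721 CPM in the other libraries. These 6 could not be among the 200, because listed transcripts were left out of the choice.

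The r of the high r transcripts ran from 0.988 to 0.909, and that of the low r transcripts from -0.96 to -0.84. These values chose the transcripts and are a description. The last high r transcript inside the list and the first outside it had an r of 0.908958 and 0.908915, and at the other end the values were -0.839949 and -0.839304, so neither end is set off by a gap. Of all eligible transcripts, 715 had an r of 0.8 or more and 214 had an r of -0.8 or less, around a median of 0.004 with an SD of 0.470. In edgeR's quasi-likelihood test of the StRIK level as a continuous term over the 9 RNAi libraries, 0 of 37723 transcripts passed an adjusted p of 0.05. At an unadjusted p under 0.05, 2915 rose (7.73%) and 2768 fell (7.34%) with StRIK. The count became 77 transcripts without line 9 replicate 1, 77 without line 47 replicate 3 and 3 with the lane tag as a covariate.

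For each doubling of StRIK, the levels of the high r transcripts rose by 0.32 to 2.10 on the log2 scale (median 0.84), and those of the low r transcripts changed by -2.50 to -0.18 (median -0.59). The high r transcripts were mostly of low abundance, with mean levels over the RNAi libraries from 5.002 to 317.7 CPM and a median of 12.8 CPM. The low r transcripts ran from 5.56 to 1315 CPM with a median of 26.15 CPM, and the median of all eligible transcripts was 17.1 CPM. Of the high r transcripts, 30 had another of that list within 5 identifier numbers, as have the isoforms of StRIK, and of the low r transcripts 18 had one. Reads that fit several isoforms are divided among them by eXpress, so such neighbours may not be separate measurements.

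The ordering by StRIK was present inside each line as well as across lines. In line 9, where StRIK spans the widest range, 96 of the 100 high r transcripts were ranked like StRIK over the 3 libraries, against 18.8% of eligible transcripts. In line 12 this held for 82 (27.3% of eligible transcripts) and in line 47 for 70 (19.9%). Low r transcripts were ranked opposite to StRIK in 73 cases in line 9 (15.5%), 58 in line 12 (19.9%) and 35 in line 47 (9.76%). With each line's mean taken away, r over the 9 libraries ran from 0.867 to 0.990 in the high r list and from -0.99 to -0.74 in the low r list. The same libraries chose the lists, so these counts describe the choice and support nothing beyond it.

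In each library, a list can be summarised by the median over its transcripts of the difference from the mean of the RNAi libraries on the log2(CPM + 0.5) scale. For the high r transcripts this median was -0.08, 0.53 and 0.25 in line 9, 0.17, -0.20 and -0.35 in line 12, and -0.38, -0.03 and 0.07 in line 47. In the Wild type libraries, which were not used to compute r, it was -0.05, -0.19 and 0.18. The Wild type values thus lay in the middle of the RNAi values, between those of libraries with 41.3 and 60.0 CPM of StRIK, although the Wild type had the most StRIK. For the low r transcripts the median was -0.01, -0.43 and -0.16 in line 9, -0.13, 0.18 and 0.22 in line 12, and 0.26, -0.01 and 0.02 in line 47. It was 0.10, 0.17 and -0.12 in the Wild type, again inside the range of the silenced libraries.

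**Figure D1:**
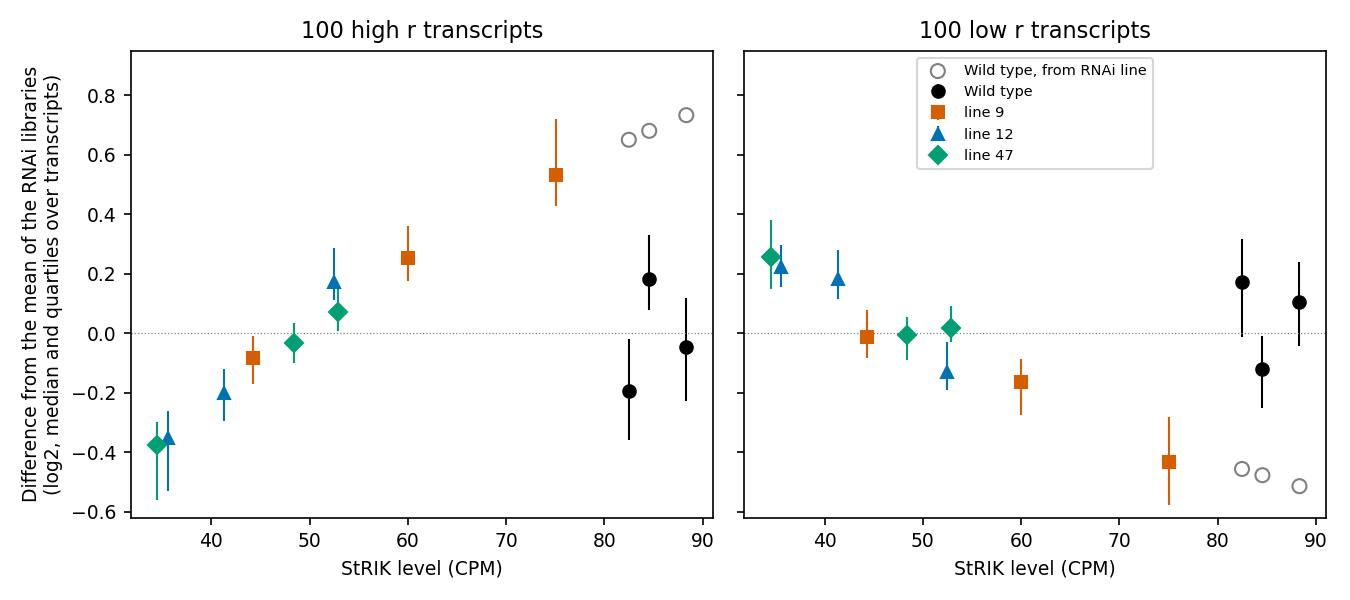
Median difference from the mean of the 9 RNAi libraries (log2 scale, points, with bars from the first to the third quartile over the transcripts) against the StRIK level in CPM, by library, for the 100 high r transcripts (left) and the 100 low r transcripts (right). The open circles are the values that the RNAi regressions give at the StRIK level of each Wild type library, between 0.65 and 0.73 on the left and between -0.51 and -0.46 on the right, and the 3 Wild type libraries lie away from them, at -0.19 to 0.18 and at -0.12 to 0.17.

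The trend was carried forward to the Wild type by fitting a regression to the RNAi libraries for each transcript and reading it at the Wild type StRIK level. The regressions placed the Wild type above the RNAi mean by a median of 0.69 (log2) in the high r list. The median observed difference was -0.03, beside 0.01 over all eligible transcripts. For the low r list the regressions gave a median of -0.48 and the observed median was 0.03. The Wild type fell short of the regression by a median of 0.73 in the high r list and lay above it by a median of 0.54 in the low r list. All 100 high r transcripts were below their regression and all 100 low r transcripts above theirs. As the regressions were fitted to the libraries that chose the transcripts, these distances have no test.

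The Wild type mean was above the RNAi mean in 42 of the 100 high r transcripts, where 52.3% of eligible transcripts were above. It was below the RNAi mean in 42 of the 100 low r transcripts, where 47.7% of eligible transcripts were below. These counts depended on single Wild type libraries, since 24 high r transcripts were above when Wild type replicate 3 was left out and 64 when replicate 2 was. Chosen without line 9 replicate 1, 64 low r transcripts were below. When lists were chosen on the 6 RNAi libraries that the study used and compared with those, the counts turned to 67 high r transcripts above (52.5% of eligible transcripts) and 65 low r transcripts below (47.5%), with median differences of 0.05 and -0.06. Those lists share 23 and 9 transcripts with the lists described here. No high r transcript had all Wild type libraries above all RNAi libraries (0.676% of eligible transcripts), and no low r transcript had them all below (0.466%). The exclusion of the transcripts that the study lists as changed bears on this. With those kept in the choice, 3 high r transcripts, all of them listed, and 0 low r transcripts were of this kind. In 71 high r and 63 low r transcripts all 3 Wild type libraries lay inside the range of the RNAi libraries, against 48.8% of eligible transcripts. The difference was within 1 SD of the RNAi libraries in 91 high r and 89 low r transcripts, against 78.0% of eligible transcripts. The median SD among the RNAi libraries was 0.32 in the high r list, 0.24 in the low r list and 0.25 over eligible transcripts (log2 scale). A wider RNAi spread encloses the Wild type more often, so these high r counts follow in part from the spread of the libraries that chose the list.

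Line 9 replicate 2 is the silenced library nearest to the Wild type in StRIK. In 91 of the high r transcripts all Wild type libraries lay below it, against 28.3% of eligible transcripts, and in 89 of the low r transcripts they all lay above it, against 30.5%. That library was among those that chose the lists, and its place at the end of them follows in part from the choice. Each RNAi library was therefore also left out, the lists were chosen again on the other 8, and the library left out was read against the mean of those 8. Line 9 replicate 2, left out in this way, was above that mean in 97 of 100 high r transcripts (48.3% of eligible transcripts) and below it in 84 of 100 low r transcripts (51.7%). Its median difference was 0.45 in the high r list, where the other 8 libraries gave 0.58, and -0.24 in the low r list, where they gave -0.37. On the same lists, chosen without that library, the Wild type medians were -0.00, -0.10 and 0.21 in the high r list and 0.05, 0.11 and -0.18 in the low r list. The Wild type mean was above the mean of the 8 in 52 high r transcripts (52.2% of eligible transcripts) and below it in 58 low r transcripts (47.8%). All Wild type medians were thus nearer to 0 than those of line 9 replicate 2.

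The other libraries left out differed in how well they followed the trend. The libraries with the least StRIK followed it closely in the high r list. Line 12 replicate 2 was below the mean of the other 8 in 91 high r transcripts and above it in 92 low r transcripts, where 52.9% of eligible transcripts were above. Line 12 replicate 3 was below in 92 high r (55.1%) and above in 73 low r transcripts (44.9%), and line 47 replicate 1 was below in 94 (49.3%) and above in 61 (50.7%). Of the libraries above the mean StRIK level, line 12 replicate 1 was above in 91 high r transcripts (53.3%) and below in 75 low r transcripts (46.7%). Line 9 replicate 3 was above in 83 (46.4%) and below in 61 (53.6%).

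Of the remaining 3 libraries, line 9 replicate 1 and line 47 replicate 3 did not follow the trend, and some of their medians went against it. Line 9 replicate 1 was below the mean of the other 8 in 45 high r transcripts, where 54.5% of eligible transcripts were below, and above it in 17 low r transcripts, where 45.5% were above. Its median difference was 0.05 in the high r list, where -0.11 was predicted, and -0.19 in the low r list, where 0.07 was predicted. Line 47 replicate 3 was above in 53 high r transcripts (65.7%) and below in 11 low r transcripts (34.3%), and its median of 0.27 in the low r list stood against a predicted -0.10. Line 47 replicate 2, whose StRIK level of 48.4 CPM was close to the mean of the other 8, was above in 30 high r (42.5%) and below in 53 low r transcripts (57.5%). Its predicted medians were only 0.01 and -0.01, so it could not show whether the trend was followed. Both of these libraries of line 47 are the ones with lane tag 6 and with high levels of the transcripts grouped as rRNA-like, whose part in these counts was not tested.

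**Figure D2:**
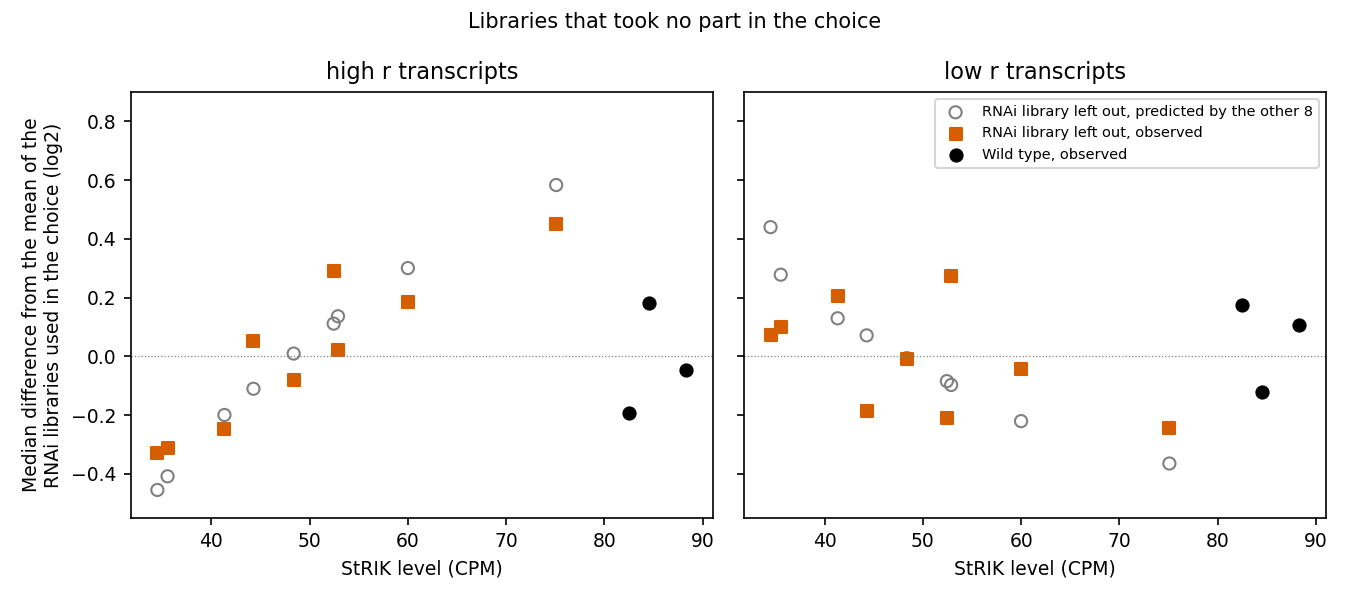
Median difference from the mean of the RNAi libraries used in the choice (log2 scale) against StRIK level in CPM. High r transcripts are on the left and low r transcripts on the right, in libraries not used to compute the r that chose the lists. Filled squares are RNAi libraries, each left out while the lists were chosen on the other 8, open circles are the values that those 8 predict, and black points are the 3 Wild type libraries on the lists chosen on all 9 RNAi libraries. Line 9 replicate 2, at 75.1 CPM, reached 0.45 on the left and -0.24 on the right, while the Wild type libraries to its right stayed between -0.19 and 0.18.

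The Wild type libraries differed from each other along the same axis although their StRIK levels were within 6 CPM of each other. Wild type replicate 3 was above replicate 2 in 88 of the 100 high r transcripts (50.1% of eligible transcripts) and below it in 79 of the 100 low r transcripts (49.9%). In 53 high r transcripts the 3 libraries were ordered with replicate 3 highest and replicate 2 lowest, against 24.5% of eligible transcripts, and in 43 low r transcripts in the reverse order, against 24.6%. This comparison was chosen after the values were seen. Replicate 3 had the lowest total of the 12 libraries, 18650236 effective counts, and replicate 2 the highest of the Wild type, 20210598. The library with the lower total thus had the higher high r median (0.18 against -0.19), whereas among the RNAi libraries totals rose with StRIK. The part of depth in this difference was not tested. In bulk periderm, a change in the share of a cell type and a change in the amount of a transcript per cell cannot be told apart.

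The identifiers of these transcripts are not paired with gene names in the tables used here, except that of the StRIK isoform outside the reach of the hairpin. For this reason no count by pathway is given, markers of periderm and of other tissues could not be looked up, and 4 further identifiers stand for the lists. PGSC0003DMT400073642 had the highest r of all, 0.988. Its level was 6.27, 7.72 and 8.53 CPM in the Wild type, 7.09, 12.0 and 10.3 CPM in line 9, 8.45, 6.99 and 5.44 CPM in line 12, and 5.80, 7.60 and 8.95 CPM in line 47. The Wild type libraries lay among those of lines 12 and 47, and all were below line 9 replicates 2 and 3. The Wild type mean was 7.51 ± 1.14 CPM (SD, n = 3) and the RNAi mean 8.07 ± 2.12 CPM (SD, n = 9), with p = 0.773 in a two-sided exact permutation test. The difference on the log2 scale was -0.07, where the regression gave 0.79.

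PGSC0003DMT400031463, the third in the high r list with an r of 0.978, stood at 7.98, 5.401 and 11.0 CPM in the Wild type. In the RNAi libraries it stood at 7.54, 12.8 and 9.47 CPM in line 9, 9.62, 6.52 and 5.02 CPM in line 12, and 4.80, 8.22 and 9.09 CPM in line 47. The Wild type alone spanned most of the RNAi range. Its means, 8.11 ± 2.78 CPM in the Wild type (SD, n = 3) and 8.12 ± 2.52 CPM in the RNAi libraries (SD, n = 9), differed by 0.00 on the log2 scale where the regression gave 0.97, with an exact permutation p of 0.991.

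PGSC0003DMT400059650 had the lowest r, -0.96. It stood at 80.6, 81.2 and 77.4 CPM in the Wild type, against 82.2, 61.4 and 72.03 CPM in line 9, 74.999, 93.1 and 107.2 CPM in line 12, and 116.8, 84.3 and 85.5 CPM in line 47. The 3 Wild type values were close to each other and in the lower middle of the RNAi values, of which the highest came from the libraries with least StRIK. The means were 79.8 ± 2.03 CPM (SD, n = 3) and 86.4 ± 17.3 CPM (SD, n = 9), a difference of -0.09 on the log2 scale where the regression gave -0.63 (exact permutation p = 0.618).

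PGSC0003DMT400016278, the second in the low r list, stood at 23.8, 28.4 and 23.0 CPM in the Wild type, at 25.3, 21.9 and 21.7 CPM in line 9, at 24.7, 25.7 and 28.8 CPM in line 12, and at 27.7, 24.3 and 24.6 CPM in line 47. Wild type replicate 2 lay at the level of the most silenced libraries and the other Wild type libraries lay near line 9. The difference of the means was 0.01 on the log2 scale, where the regression gave -0.29 (exact permutation p = 0.909). Adjusted over the 4 transcripts by the Benjamini-Hochberg method, these permutation p-values were all 0.991, and the adjusted p of edgeR's quasi-likelihood test over all transcripts was between 0.92 and 0.997.

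**Figure D3:**
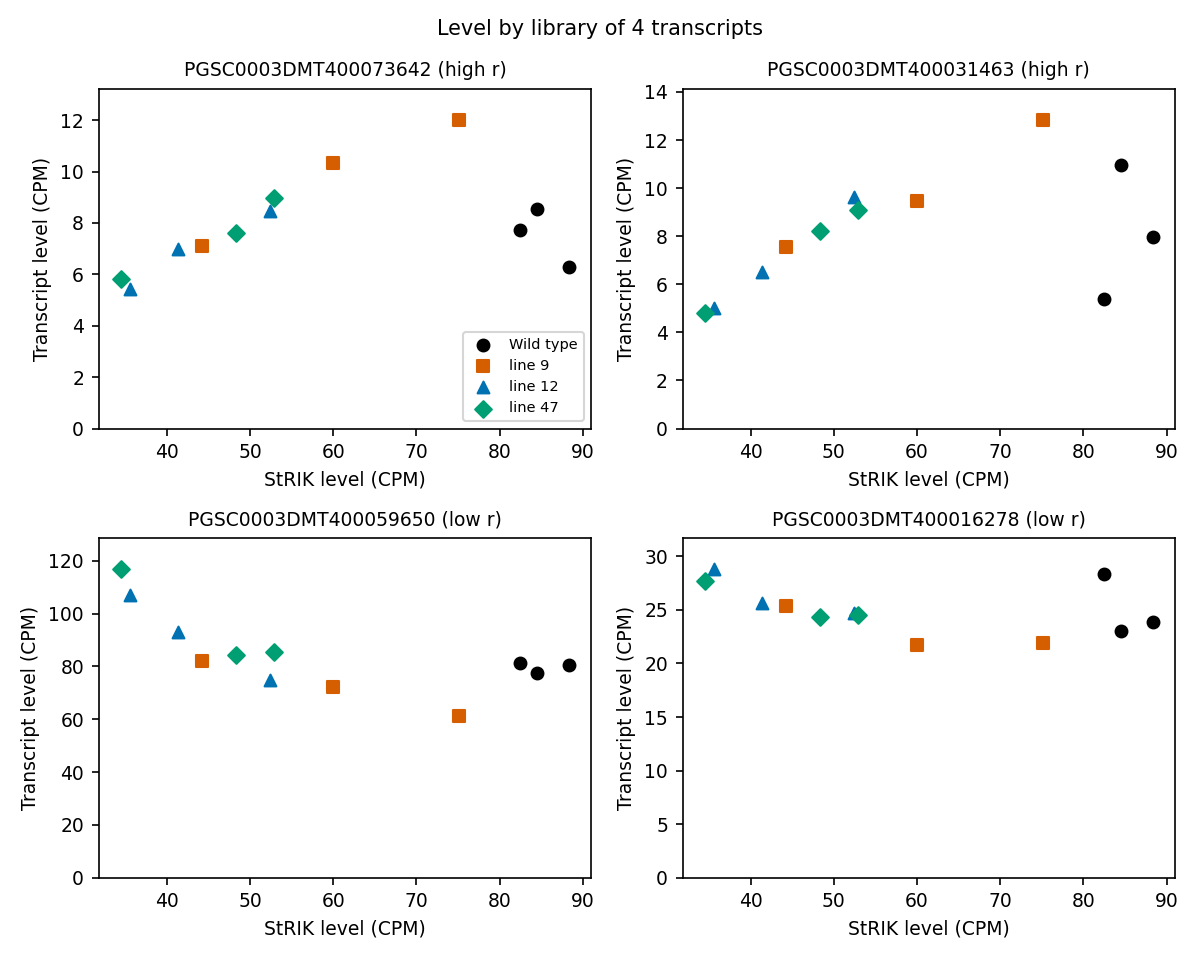
Level in CPM against StRIK level in CPM in each of the 12 libraries, for the high r transcripts PGSC0003DMT400073642 and PGSC0003DMT400031463 (top) and the low r transcripts PGSC0003DMT400059650 and PGSC0003DMT400016278 (bottom), with all vertical axes from 0. The RNAi libraries fall along a trend in each panel, from which they were chosen, and the Wild type libraries at 82.5 to 88.3 CPM of StRIK lie at the height of RNAi libraries with far less StRIK.

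The member with a name, PGSC0003DMT400064735, is the RIK isoform that the hairpin does not match. It was at rank 57 of the high r list with an r of 0.928. Its level was 15.6, 14.8 and 18.8 CPM in the Wild type and between 8.86 and 16.8 CPM in the RNAi libraries, where the highest value was that of line 9 replicate 2. Its Wild type mean was 0.44 above the RNAi mean on the log2 scale, the largest positive difference of the high r list, and the regression gave 0.65. By edgeR's quasi-likelihood test its log2 fold change in the RNAi libraries was -0.43 (SE 0.17) with a Benjamini-Hochberg adjusted p of 0.71. As an isoform of the same gene it may share reads with the isoforms that make up the StRIK value. It may therefore be no separate measurement of what follows StRIK, and the sharing of reads was not tested.

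The comparison of RNAi with the Wild type called few transcripts. By edgeR's quasi-likelihood test, 15 of 38364 transcripts passed a Benjamini-Hochberg adjusted p of 0.05 (0.0391%), and 0 of the 200 did, with lowest adjusted p of 0.513 in the high r list and 0.695 in the low r list. At that share 0 is what most lists of 200 would give. The transcripts that the study lists as changed were left out of the 200 but not of the 38364. At an unadjusted p under 0.05, 3 high r transcripts were higher in the RNAi libraries and 1 was lower, beside 3.46% and 3.28% of all transcripts, and of the low r transcripts 0 were higher and 3 lower. These counts depended on the libraries, since with the 6 RNAi libraries that the study used 16 high r transcripts were lower in RNAi and 3 higher, beside 2.80% and 3.01% of all transcripts, and without line 9 replicate 2 there were 6 lower. The libraries that the study left out, line 9 replicates 2 and 3 and line 12 replicate 1, had the highest high r medians (0.53, 0.25 and 0.17). Leaving them out lowers the RNAi mean of the high r transcripts, so this excess follows in part from the choice. At an adjusted p of 0.05 DESeq2 called 107 transcripts and limma-voom 16, and 0 of the 200 by either. The median log2 fold change of RNAi over Wild type was 0.06 in the high r list, -0.01 in the low r list and 0.01 over all transcripts. The sign of the trend, lower in RNAi for high r transcripts and higher for low r transcripts, was shown by 37 and 46 of 100, beside 48.2% of all transcripts below 0 and 51.8% above.

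Larger differences between Wild type and RNAi means were few. Of the high r transcripts, 5 had a Wild type mean more than 0.4 below the RNAi mean on the log2 scale (5.43% of eligible transcripts) and 1, the RIK isoform, more than 0.4 above it (6.20%), so the first count is near the background share. In 3 the Wild type was lower by more than 1, which 0.577% of eligible transcripts showed, and these were at ranks 9, 15 and 37. Those at ranks 9 and 37 are 2 identifier numbers apart and may not be separate measurements. The transcript at rank 37 stood at 5.26, 5.88 and 6.84 CPM in the Wild type and between 7.09 and 33.8 CPM in the RNAi libraries, and it was the 1 high r transcript with all Wild type libraries below all RNAi libraries. That at rank 15 stood at 30.4, 19.9 and 27.5 CPM in the Wild type and between 29.9 and 162.9 CPM in the RNAi libraries. At rank 9 the values were 17.4, 11.3 and 19.8 CPM and between 18.4 and 97.0 CPM. In all 3 the highest value was that of line 9 replicate 2, and the Wild type lay at the level of the most silenced libraries or below it. These 3 were singled out after their values were seen.

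Among the low r transcripts, 8 had a Wild type mean more than 0.4 above the RNAi mean (6.20% of eligible transcripts) and 0 more than 0.4 below it (5.43%). The differences of the low r list ran from -0.20 to 0.84, and the largest belonged to the transcript with the steepest regression, for which a difference of -2.05 was predicted. The spread among the Wild type libraries was also considerable. Its median SD over the high r transcripts was 0.22 on the log2 scale against 0.32 among the RNAi libraries, and over the low r transcripts 0.20 against 0.24, and in 45 low r and 22 high r transcripts the Wild type SD exceeded that of the RNAi libraries.

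**Figure D4:**
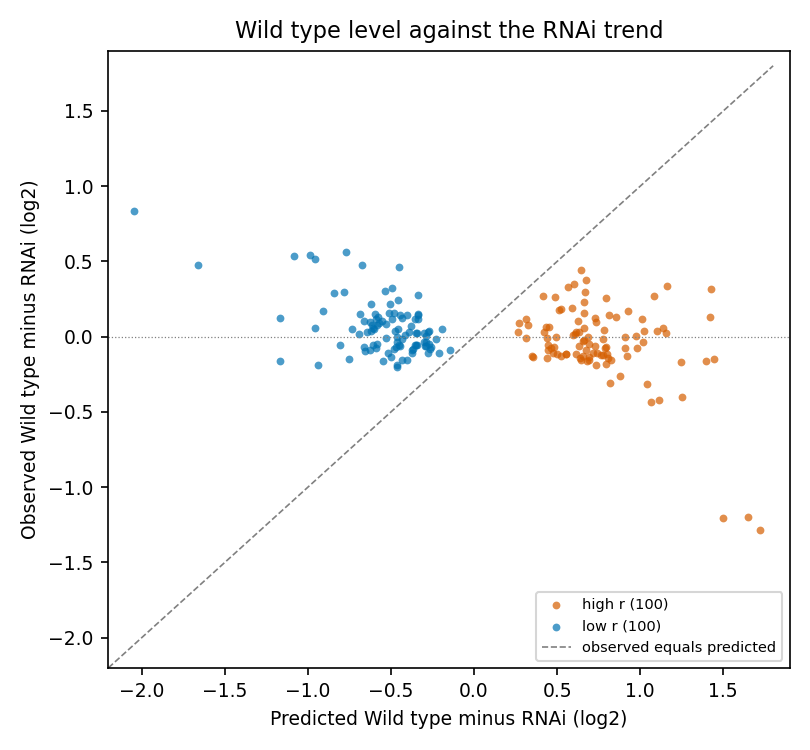
Observed difference between Wild type and RNAi means against the difference that the regression over the RNAi libraries predicts, both on the log2 scale, with 1 point for each of the 100 high r and 100 low r transcripts. The dashed diagonal marks equality. All high r points lie below it and all low r points above it, with medians of -0.03 observed against 0.69 predicted and 0.03 observed against -0.48 predicted, and the 3 high r points near the bottom are those with the Wild type lower by more than 1.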

How the data were processed

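Periderm RNA of 12 samples was sequenced by the authors (TruSeq, Illumina). After mapping with Bowtie 2 to the S. tuberosum Group Phureja transcriptome, the authors deposited eXpress 1.5.1 effective counts, which are estimated counts per transcript that are not normalized between libraries. FastQC 0.11.2 and Cufflinks are also named in their notes. CPM was computed over library totals with a pseudocount of 0.5. Counts were rounded and tested with edgeR 4.0.16 (TMM, at least 10 counts over the libraries fitted, Benjamini-Hochberg adjustment, threshold 0.05) in R 4.3.3, with DESeq2 1.42.0 and limma 3.58.1 as alternatives. Exact permutation tests used Python 3.11.15. The authors compared genotypes with baySeq on 6 of the 9 RNAi libraries. All 9 are used here because all 9 chose the transcripts.

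The members and lists were chosen with earlier results of these data known. The named identifiers follow a rule by rank, limited to 2 higher and 2 lower in the Wild type because they have no gene name. The fits and the choice were tested on simulated data. P-values treat libraries as independent samples. Alternatives covered scaling, filters, libraries, lane tag and the replicate number.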

Additional observations from a re-analysis of the deposited data

How the results depend on the processing

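Which transcripts entered the lists depended on the libraries and on the definition. The number on the side of the trend in the Wild type stayed within 1.5 times its value in 24 alternatives for the high r list and 23 for the low r list, and moved further in 3 and 4. Staying within 1.5 times can still turn the majority, and the high r count was 59 with StRIK as PGSC0003DMT400064730 alone and 55 without both line 9 replicates 2 and 3, the counts without line 9 replicate 2 were 52 and 58, and the low r count was 60 without Wild type replicate 2. Of the 100 high r and 100 low r transcripts, between 49 and 77 and between 40 and 80 were chosen again without 1 RNAi library. Chosen by Spearman's rho, 53 and 45 were shared, with the 7 RNAi libraries of lane tag 7 56 and 30, by r within lines 33 and 31, with StRIK as PGSC0003DMT400064730 alone 32 and 46, with a mean of 20 CPM or more 25 and 62, with a mean of 1 CPM or more 59 of the high r list, with TMM-scaled CPM 43 of the low r list, and with the 6 RNAi libraries that the study used 23 and 9. In alternatives chosen after seeing the data, the partial r given total effective counts shared 35 and 14, and the choice without both line 9 replicates 2 and 3 shared 28 and 16.

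The Wild type mean was on the side of the trend in 67 high r and 65 low r transcripts with the 6 libraries of the study, in 65 low r transcripts without both line 9 replicates 2 and 3, and in 27 low r transcripts with lane tag 7. Without 1 library the counts ran from 24 to 64 in the high r list and from 29 to 64 in the low r list. The median differences ran from -0.14 to 0.06 and from -0.06 to 0.11 without 1 library, and the distances to the regression from -0.86 to -0.63 and from 0.49 to 0.63 without 1 Wild type library (no RNAi library was left out for these).

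All Wild type libraries were above all RNAi libraries in 0 to 3 high r transcripts, and below them in 0 to 2 low r transcripts, without 1 library. High r transcripts of this kind numbered 6 with the libraries of the study (1.52% of eligible transcripts) and 4 without both line 9 replicates (1.08%). They numbered 1 each by rho, r within lines and partial r (0.676%), and 1 with lane tag 7. With the listed identifiers kept they numbered 3, all of them transcripts that the study lists as changed. Low r transcripts of this kind numbered 2 with the libraries of the study (1.05%), 2 without both line 9 replicates (0.802%) and 1 with PGSC0003DMT400064730 alone (0.466%). The share over eligible transcripts was not computed without 1 library, with lane tag 7 or with the listed identifiers kept. Against line 47 replicates 2 and 3 only, which share the lane tag of the Wild type, high r and low r transcripts of this kind numbered 10 (6.84% of eligible transcripts) and 13 (8.10%). Those 2 libraries are easier to exceed than 9.

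In RNAi against Wild type, 7 transcripts were called with the replicate number as a block, 37 with the lane tag as a covariate, 107 by DESeq2 and 7 to 31 without 1 library, and 0 of the 200 in each. The r between the deviations of same-numbered samples ran from -0.62 to 0.64 over 18 pairs, with 5 over 0.1. Samples of different number were not compared in this way, so this does not settle whether the numbers pair the samples. The main fits used no pairing. The StRIK slope called 3 transcripts, 2 of them members, with the lane tag as a covariate, and 0 to 77 transcripts, with 0 to 22 members, without 1 library. The members were chosen on their r with StRIK in these libraries, so their part in these counts follows from the choice.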
